A study of Mus musculus with 4 samples.

Results

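The interferon regulatory factors (IRFs) are a family of transcription factors, and 8 of their genes are described here: Irf1, Irf2, Irf3, Irf4, Irf5, Irf7, Irf8 and Irf9. They were taken by gene symbol from a table of 17039 genes, and all 8 passed the filter on low counts. RNA sequencing had been done on T cells from the spleens of C57BL/6 mice, 2 injected in muscle with AAV-IL-27, an adeno-associated virus carrying interleukin-27, and 2 with AAV-ctrl, a control virus. Cells were separated with magnetic beads about a month after the injection. The series title calls them CD8+, and the cell type field calls them splenic T cells. The mice are described as 4 animals, so each library, replicate 1 or 3 of its group, comes from its own mouse. Nothing in the labels names the promoter of the virus or the age and sex of the mice. The comparison asks which IRF genes differ in these cells when the virus supplies interleukin-27 (IL-27).

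IRFs share a DNA-binding domain at their N terminus, built around repeated tryptophans, that contacts GAAA repeats in the interferon-stimulated response element (ISRE). IRF3, IRF5 and IRF7 lie idle in the cytoplasm until kinases below pattern receptors phosphorylate them, and they then switch on type I interferon and inflammatory genes. IRF9 is the DNA-binding part of the complex ISGF3, which carries the signal of type I interferon. IRF1 is induced by interferon gamma and activates genes of antigen presentation, while IRF2 binds the same sites and can hold them back. IRF4 and IRF8 are found mainly in immune cells. In T cells, IRF4 is induced by the T cell receptor and is needed for effector differentiation, whereas IRF8 is best known from dendritic cells, monocytes and B cells. IL-27 is a cytokine that signals through Janus kinases and factors such as STAT3. Dimers of STAT factors bind the gamma-activated site (GAS).

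The promoter windows of the 8 genes were searched for the letters of both kinds of site, and those with a match are shown. RefSeq windows (GRCm38.p6, 250 bases before to 50 after each annotated start) were at hand for all 8 genes, 11 windows in all. GAS was searched as TTCNNNGAA, which reads alike on both strands, and ISRE as the letters GAAA, 2 of any base and GAAA again, on both strands, and no match of one overlapped a match of the other. GAS letters stood in 1 window each of Irf1, Irf2 and Irf8, and ISRE letters in that of Irf2. Of all 32851 windows, 8.30% hold the GAS letters and 3.44% the ISRE letters. The 250 bases before the start are printed for these 3 genes, with matches in capitals. Irf1 has 1 GAS match, Irf2 has an ISRE match followed by a GAS match, and Irf8 has 2 GAS matches.
Irf1, chr11:53769764-53770013, plus strand: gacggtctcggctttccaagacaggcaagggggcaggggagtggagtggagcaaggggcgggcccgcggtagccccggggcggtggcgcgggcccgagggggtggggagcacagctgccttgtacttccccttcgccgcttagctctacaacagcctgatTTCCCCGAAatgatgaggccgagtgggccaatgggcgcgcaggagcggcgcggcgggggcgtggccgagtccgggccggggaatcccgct
Irf2, chr8:46739495-46739744, plus strand: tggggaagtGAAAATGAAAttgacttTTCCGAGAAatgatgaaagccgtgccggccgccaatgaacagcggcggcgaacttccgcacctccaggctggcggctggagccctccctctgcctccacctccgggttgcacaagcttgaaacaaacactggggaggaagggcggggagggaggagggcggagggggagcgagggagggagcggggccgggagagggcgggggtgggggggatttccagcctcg
Irf8, chr8:120736108-120736357, plus strand: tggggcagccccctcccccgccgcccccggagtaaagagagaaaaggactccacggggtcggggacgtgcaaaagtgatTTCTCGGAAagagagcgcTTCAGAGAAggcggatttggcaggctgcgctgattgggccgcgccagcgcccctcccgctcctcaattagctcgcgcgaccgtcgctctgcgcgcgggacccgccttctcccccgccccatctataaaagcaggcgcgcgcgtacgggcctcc
The GAS letters of Irf1 read TTCCCCGAA and lie at positions -90 to -82, counted from the start. In Irf2 they read TTCCGAGAA at -224 to -216, and the ISRE letters read GAAAATGAAA at -241 to -232. In Irf8 they read TTCTCGGAA at -171 to -163 and TTCAGAGAA at -153 to -145. A match describes these letters and does not show that a factor bound there.

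**Figure D1:**
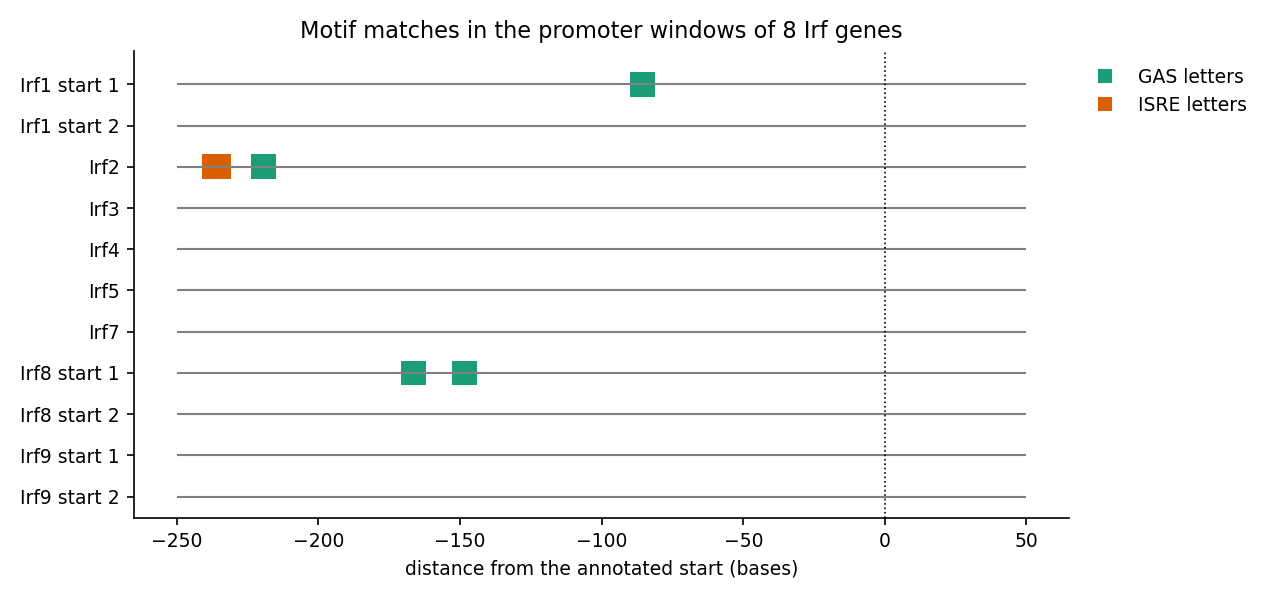
Matches of GAS letters (green) and ISRE letters (orange) in the 11 promoter windows of the 8 genes, by distance in bases from the annotated start (dotted line). GAS matches stand in 1 window each of Irf1, Irf2 and Irf8, and the ISRE match in that of Irf2.

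Summed over the 8 genes, IRF transcripts were more abundant in AAV-IL-27, and their make-up differed. Of the 8 genes, 6 rose (Irf1, Irf8, Irf7, Irf4, Irf2 and Irf9) and 2 fell (Irf3 and Irf5) by edgeR's quasi-likelihood test, at an adjusted p under 0.05 over all 12887 genes tested. The median log2 fold change of the 8 was 0.36, against -0.005 over all genes tested. In the whole comparison 39.0% of genes were called, 21.3% higher and 17.7% lower, so a call alone is common in these libraries. The counts of every list below are to be read beside these shares. In FPKM (counts per gene length and library size, the scale used here for all levels between genes), the 8 genes summed to 765 and 725 in the AAV-IL-27 libraries, against 538 and 526 in the AAV-ctrl libraries. Irf1 and Irf8 differed most in mean FPKM, at 242.7 against 114.0 and 178.0 against 116.4. For no member did the FPKM of the groups overlap. Of all genes tested, 71.5% had groups that did not overlap in CPM (counts scaled to library size), 35.7% higher and 35.8% lower in AAV-IL-27. Counts per member ranged from 960 to 9001 per library, out of 15742476 to 16182426 counts. Those of Irf1, Irf5 and Irf9 were not whole numbers in any library, nor was that of Irf2 in AAV-IL-27 replicate 3. For these members, sharing of reads with other genes was not tested. With 2 mice a group, the exact permutation test of a single value cannot go below p = 0.333, and p-values are therefore given only from the fit across all genes. In bulk RNA, a change in the share of cells that express a gene cannot be told apart from a change in RNA per cell.

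**Figure D2:**
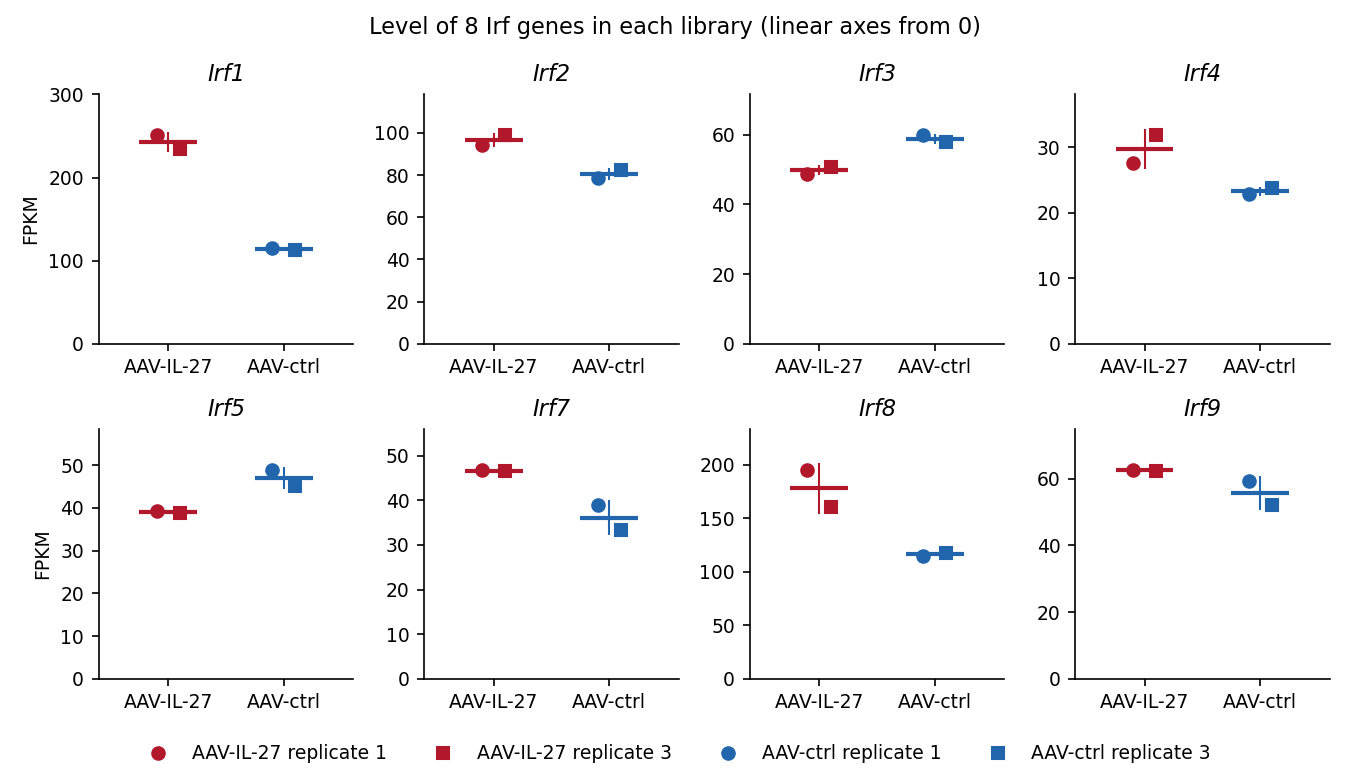
FPKM of each gene in the 4 libraries (circles, replicate 1; squares, replicate 3), with the group mean (horizontal line) and SD (vertical line, n = 2); each panel has its own linear axis from 0. In AAV-IL-27, 6 genes stand above and 2, Irf3 and Irf5, below both AAV-ctrl libraries.

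The order of the members by FPKM was the same in both libraries of a group and differed between the groups. In AAV-IL-27 it ran Irf1, Irf8, Irf2, Irf9, Irf3, Irf7, Irf5 and Irf4, with no overlap between neighbours. In AAV-ctrl it ran Irf8, Irf1, Irf2, Irf3, Irf9, Irf5, Irf7 and Irf4. There Irf3 and Irf9 overlapped, and Irf8 exceeded Irf1 by a mean of only 2.38 FPKM. Irf1 made up 32.8% and 32.4% of the summed FPKM of the family in the AAV-IL-27 libraries, against 21.3% and 21.6% in the AAV-ctrl libraries. Irf3 made up 6.38% and 7.01% in AAV-IL-27, against 11.1% and 11.0% in AAV-ctrl. Irf5 made up 5.13% and 5.35%, against 9.07% and 8.59%. A share also depends on the other members, and shares were lower for Irf2 and Irf9 too, although both genes rose. Irf2 made up 12.3% and 13.6%, against 14.6% and 15.7%, and Irf9 8.18% and 8.62%, against 11.0% and 9.91%. Irf4 was the lowest member in every library, yet its FPKM in AAV-ctrl exceeded that of 78.3% and 79.3% of the listed genes.

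**Figure D3:**
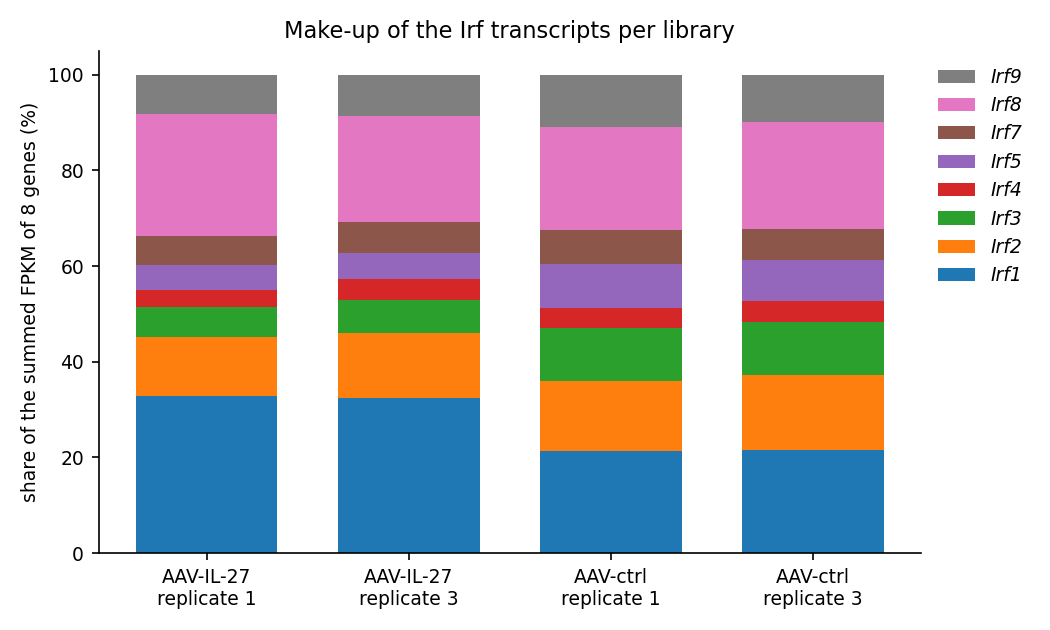
Share in percent of each gene in the summed FPKM of the 8 genes, 1 bar per library. Irf1 (blue) takes 32.4% to 32.8% in AAV-IL-27 and 21.3% to 21.6% in AAV-ctrl.

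Irf1, the activator that follows interferon gamma (NCBI Gene 16362, chromosome 11, 53770014 to 53778374, GRCm38.p6), stood at 251 and 235 FPKM in the AAV-IL-27 libraries, against 115 and 113 FPKM in the AAV-ctrl libraries. Both AAV-IL-27 mice were far above both controls, and the controls lay close together. Its log2 fold change was 1.14 ± 0.051 (SE, edgeR adjusted p = 5.04e-07), a rise of 120.3%, which was higher than the log2 fold change of 95.1% of the genes tested. Irf2, its antagonist at shared sites (NCBI Gene 16363, chromosome 8, 46739745 to 46847458), stood at 94.2 and 98.9 FPKM in AAV-IL-27, against 78.6 and 82.4 FPKM in AAV-ctrl. The groups did not overlap, but the gap between them was narrow. Irf2 rose by 0.31 ± 0.051 on the log2 scale (adjusted p = 0.00133), a 1.24-fold difference. The FPKM of Irf1 was 2.67 and 2.37 times that of Irf2 in the AAV-IL-27 libraries, against 1.46 and 1.38 times in the AAV-ctrl libraries. Both members of the pair were higher, and the balance between them lay further towards Irf1 in AAV-IL-27.

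Irf8 (NCBI Gene 15900, chromosome 8, 120736358 to 120756694), the factor of dendritic cells, monocytes and B cells, stood at 195 and 161 FPKM in the AAV-IL-27 libraries, against 115 and 118 FPKM in the AAV-ctrl libraries. The AAV-IL-27 mice differed more from each other than the controls did, and both were above the controls. Irf8 rose by 0.66 ± 0.09 (adjusted p = 0.00201), a 1.58-fold difference. The 9 dendritic cell markers summed to 609 and 456 CPM in AAV-IL-27, against 383 and 428 CPM in AAV-ctrl. None of them was at 0 counts in any library. Zbtb46, a factor of conventional dendritic cells, rose by 0.67 ± 0.12 (adjusted p = 0.00223), Cd209a fell by 1.33 ± 0.12 (adjusted p = 4.54e-05), and the other 7 did not pass. Leaving out AAV-IL-27 replicate 1 gave 4 of 9 that rose, and leaving out its replicate 3 gave 5. Xcr1, the chemokine receptor of cross-presenting dendritic cells, stood at 21.5 and 14.6 FPKM in AAV-IL-27, against 9.58 and 10.5 FPKM in AAV-ctrl. Like Irf8, Xcr1 was highest in AAV-IL-27 replicate 1, but its difference between the groups did not pass (0.90 ± 0.24, adjusted p = 0.0714). The sum of the 13 T cell markers was also highest in that library, at 6119 and 5404 CPM in AAV-IL-27, against 5122 and 5217 CPM in AAV-ctrl. The 10 B cell markers went the other way from Irf8 in their sum, with 2471 and 3424 CPM in AAV-IL-27 against 4684 and 4231 CPM in AAV-ctrl, and none was at 0 counts. Of the 10, 3 fell and none rose. Leaving out AAV-IL-27 replicate 1 gave 8 that fell, its replicate 3 gave 10, and either AAV-ctrl library gave 1. The part of dendritic cells in the Irf8 result was not tested.

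Irf4 (NCBI Gene 16364, chromosome 13, 30749233 to 30766981), induced by the T cell receptor and also high in plasma cells, stood at 27.5 and 31.8 FPKM in AAV-IL-27, against 22.8 and 23.8 FPKM in AAV-ctrl. The higher of the AAV-IL-27 values was replicate 3, and both were above the controls. Irf4 rose by 0.40 ± 0.072 (adjusted p = 0.00289), a 1.32-fold difference. Plasma cell markers were also highest in AAV-IL-27 replicate 3. The 5 of them summed to 523 and 1150 CPM in AAV-IL-27, against 291 and 375 CPM in AAV-ctrl, and none was at 0 counts. Of these, Sdc1 rose by 0.85 ± 0.25 (adjusted p = 0.0263) and 4 did not pass. When AAV-IL-27 replicate 1 was left out, 4 of the 5 rose, and when either AAV-ctrl library was, 0 rose. Without AAV-IL-27 replicate 3, Irf4 still rose, by 0.29 (adjusted p = 0.00443), and without AAV-IL-27 replicate 1 by 0.50 (adjusted p = 0.00024). The part of plasma cells was not tested. Irf4 had 0.141 and 0.198 times the FPKM of Irf8 in AAV-IL-27, against 0.198 and 0.202 times in AAV-ctrl, so Irf8 remained the more abundant of this related pair in all 4 libraries.

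Irf9 and Irf7 are the members tied to type I interferon signalling and its amplification. Irf7 (NCBI Gene 54123, chromosome 7, 141263183 to 141266499), itself an interferon-induced gene, stood at 46.7 and 46.6 FPKM in AAV-IL-27, against 38.9 and 33.3 FPKM in AAV-ctrl. Here the controls differed from each other and the AAV-IL-27 libraries hardly did. Irf7 rose by 0.42 ± 0.074 (adjusted p = 0.00227), a 1.33-fold difference. Irf9 (NCBI Gene 16391, chromosome 14, 55603985 to 55610030), the DNA-binding part of ISGF3, stood at 62.5 FPKM in both AAV-IL-27 libraries, against 59.3 and 52.1 FPKM in AAV-ctrl. Control replicate 1 came close to the AAV-IL-27 level. Irf9 rose by 0.22 ± 0.063 (adjusted p = 0.0241), the smallest rise of the family and the least stable one.

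Irf3 and Irf5, which wait for activation by phosphorylation, were lower. Irf3 (NCBI Gene 54131, chromosome 7, 44997648 to 45002848), the first responder below nucleic acid sensors, stood at 48.8 and 50.8 FPKM in AAV-IL-27, against 59.9 and 57.8 FPKM in AAV-ctrl. Irf3 fell by 0.20 ± 0.055 (adjusted p = 0.0196), to 0.874 times the AAV-ctrl level. Irf5 (NCBI Gene 27056, chromosome 6, 29526130 to 29541869), which acts below Toll-like receptors in B cells and macrophages, stood at 39.2 and 38.8 FPKM in AAV-IL-27, against 48.8 and 45.2 FPKM in AAV-ctrl. Irf5 fell by 0.23 ± 0.054 (adjusted p = 0.00813), to 0.85 times the AAV-ctrl level. For both genes the groups lay apart by a small margin. The sum of the B cell markers, given above, was lower in the same libraries. The 12 monocyte and macrophage markers summed to 301 and 343 CPM in AAV-IL-27, against 381 and 312 CPM in AAV-ctrl, and of these 5 fell (Vcam1, C1qa, C1qb, C1qc and Adgre1) and Cd68 rose. Leaving out AAV-IL-27 replicate 1 gave 3 that fell. Leaving out its replicate 3 gave 3 that rose, and either AAV-ctrl library gave 0. None of the 12 was at 0 counts. The part of either cell type in the lower Irf5 was not tested. In FPKM, Irf7 had 0.959 and 0.917 times the level of Irf3 in AAV-IL-27, against 0.65 and 0.576 times in AAV-ctrl.

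The calls differed in how far they held. Irf1 and Irf8 passed under all 16 alternative settings tried, with log2 fold changes of 0.94 to 1.19 for Irf1 and 0.46 to 0.79 for Irf8. Irf2, Irf4 and Irf7 passed under 15 of 16, and the exception was scaling each library to its T cell markers (adjusted p = 0.419 for Irf2, 0.133 for Irf4 and 0.13 for Irf7). Irf9 did not pass under 9 of 16, among them DESeq2 (adjusted p = 0.0599), library size alone (adjusted p = 0.0626) and fits that lacked replicate 3 of AAV-IL-27 (adjusted p = 0.0559) or of AAV-ctrl (adjusted p = 0.235). Irf3 missed the threshold by DESeq2 (adjusted p = 0.146). It also missed it when AAV-IL-27 replicate 1 (0.0672), AAV-ctrl replicate 1 (0.154) or AAV-ctrl replicate 3 (0.0957) was left out. Irf5 missed it by DESeq2 (adjusted p = 0.0579) and when AAV-ctrl replicate 1 was left out (0.11). No member changed direction under any of the 16 settings, although Irf9 came to 0.02 when scaled to the T cell markers.

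**Figure D4:**
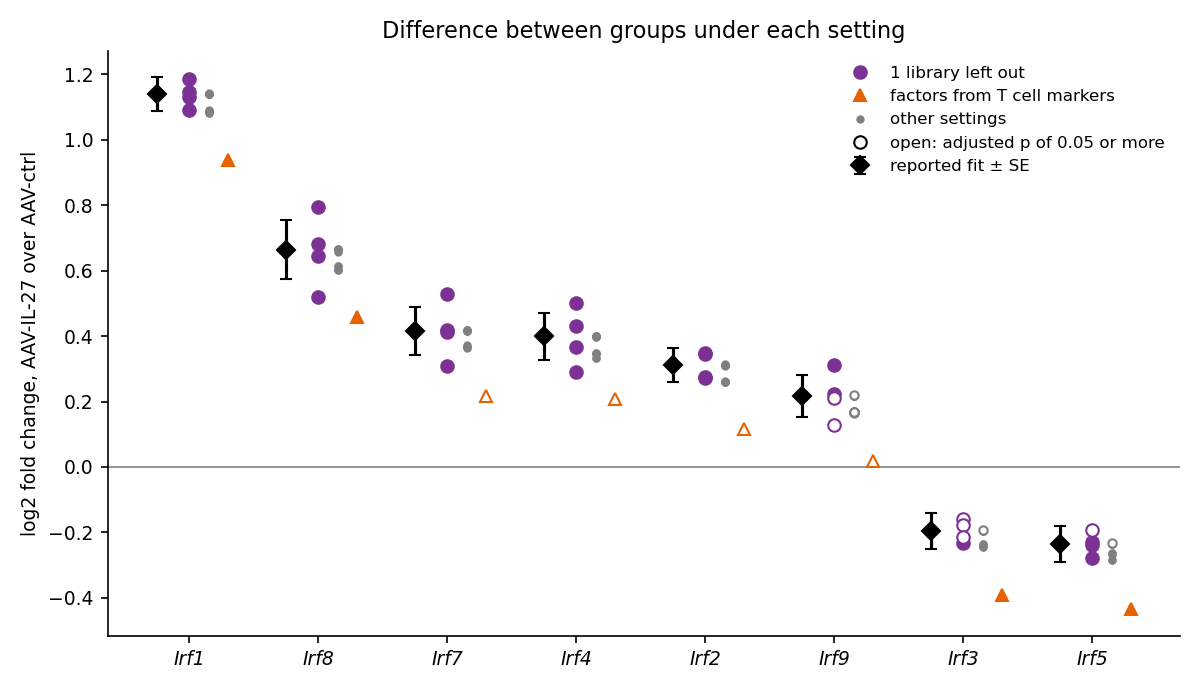
Log2 fold change of each gene, AAV-IL-27 over AAV-ctrl, in the reported fit (black, ± SE), with 1 library left out (purple), with factors from the T cell markers (orange) and under the other settings (grey); open symbols have an adjusted p of 0.05 or more. Irf1 and Irf8 have no open symbol, and Irf9 has the most.

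Genes around the IRFs were read from lists of ligands, receptors, sensors, partners and targets, chosen with earlier results of these data known. Of the ligands, Ifng, interferon gamma, stood at 37.4 and 33.5 FPKM in AAV-IL-27, against 6.36 and 6.06 FPKM in AAV-ctrl, a rise of 2.56 ± 0.099 (adjusted p = 2.24e-07). Ebi3, a subunit of IL-27, did not pass (-0.35 ± 0.18, adjusted p = 0.159), and Il27 was too low to test. Genes of type I and type III interferons were not analysed here. Over all genes tested, 21.3% were higher and 17.7% lower. Of the 12 genes of interferon receptors and ISGF3 signalling, 6 rose, 2 fell and 4 did not pass. When AAV-ctrl replicate 3 was left out, 1 fell. Stat2, an ISGF3 subunit, rose by 0.60 ± 0.051 (adjusted p = 2.56e-05). Irf9 was at 0.22, and the difference between these 2 fold changes was not tested. The feedback inhibitors Socs1 and Usp18 rose by 1.94 ± 0.11 and 1.58 ± 0.088 (adjusted p = 2.83e-06 and 1.85e-06). The 2 that fell were Ifngr2, a chain of the interferon gamma receptor, at -0.78 ± 0.12 (adjusted p = 0.00247), and Jak1, a kinase of both receptors, at -0.29 ± 0.052 (adjusted p = 0.0023).

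Of 20 sensors, adaptors and kinases that activate IRF3, IRF5 and IRF7, 6 rose, 4 fell and 10 did not pass. These counts lie near the 21.3% higher and 17.7% lower of all genes tested, and the median log2 fold change was 0.04, against -0.005 over all genes. For these genes, without AAV-ctrl replicate 1 the counts were 3 higher and 2 lower. Without AAV-ctrl replicate 3, 2 were lower. Myd88, the adaptor of Toll-like receptors, rose by 0.63 ± 0.067 (adjusted p = 0.000106), and Ifih1, the RNA sensor MDA5, by 0.57 ± 0.073 (adjusted p = 0.000332). Tlr3, a receptor for double-stranded RNA, stood at 15.7 and 12.5 FPKM in AAV-IL-27, against 7.07 and 7.78 FPKM in AAV-ctrl (0.98 ± 0.12, adjusted p = 0.00109). Ikbke, a kinase that phosphorylates IRF3 and IRF7, fell by 0.42 ± 0.049 (adjusted p = 0.000179), whereas the related kinase Tbk1 was at 0.03 ± 0.055 (adjusted p = 0.707).

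Over all genes tested, 21.3% were higher and 17.7% lower. Among 14 tested binding partners of IRF4 and IRF8, 5 rose, 2 fell and 7 did not pass. Leaving out AAV-IL-27 replicate 1 gave 4 that fell, and either AAV-ctrl library gave 1. Batf, the AP-1 factor that binds DNA together with IRF4 in T cells, stood at 28.8 and 35.0 FPKM in AAV-IL-27, against 15.2 and 16.6 FPKM in AAV-ctrl (1.06 ± 0.11, adjusted p = 0.00012). Like Irf4, Batf was highest in AAV-IL-27 replicate 3. Jun and Stat3 rose by 0.65 ± 0.05 and 0.67 ± 0.048 (adjusted p = 1.43e-05 and 8.67e-06). Spi1, the factor PU.1 that pairs with IRF4 and IRF8 in B cells and myeloid cells, was at 0.12 ± 0.067 (adjusted p = 0.175). Its relative Spib stood at 47.8 and 66.0 FPKM in AAV-IL-27, against 106 and 95.5 FPKM in AAV-ctrl (-0.78 ± 0.19, adjusted p = 0.0611). Of the IRF2-binding co-regulators, Irf2bp1 and Irf2bpl fell by 0.28 ± 0.088 and 0.17 ± 0.053 (adjusted p = 0.0294 and 0.0335). By DESeq2 neither passed (adjusted p = 0.183 and 0.231). With 1 library left out, Irf2bp1 passed only without AAV-ctrl replicate 3 (adjusted p = 0.0322, otherwise 0.0628 to 0.253), and Irf2bpl only without AAV-IL-27 replicate 3 (adjusted p = 0.0393, otherwise 0.0847 to 0.223).

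Genes known as targets of IRFs were mostly higher, but their lists were chosen with earlier results of these data known. The counts therefore describe the lists and are no independent support. Of 15 tested genes known as IRF1 targets, 13 rose, none fell and 2 did not pass (median log2 fold change 0.81, against -0.005 over all genes). Gbp2, a guanylate-binding protein with near-copies in the genome and therefore uncertain, stood at 173 and 174 FPKM in AAV-IL-27, against 33.8 and 35.7 FPKM in AAV-ctrl (2.37 ± 0.052, adjusted p = 6.34e-09). Il12rb1, a chain of the interleukin-12 receptor, and Cd274, the ligand PD-L1, rose by 2.29 ± 0.093 and 1.03 ± 0.056 (adjusted p = 2.96e-07 and 1.54e-06). Psmb9, an immunoproteasome subunit, rose by 1.08 ± 0.067 (adjusted p = 4.75e-06). Ciita, the transactivator of MHC class II, stood at 33.1 and 34.1 FPKM in AAV-IL-27, against 35.3 and 34.8 FPKM in AAV-ctrl (0.00 ± 0.047, adjusted p = 0.985). Of 18 tested genes known as targets of ISGF3 and IRF7, 13 rose, none fell and 5 did not pass (median 0.64). Zbp1, a nucleic acid sensor, rose by 1.62 ± 0.049 (adjusted p = 5.98e-08), Oas1a by 1.25 ± 0.11 (adjusted p = 3.03e-05) and Oas3 by 0.65 ± 0.064 (adjusted p = 6.11e-05). Among the 5 that did not pass were Ifit1 (0.11 ± 0.19, adjusted p = 0.686), Ifit3 (0.27 ± 0.12, adjusted p = 0.13) and Rsad2 (0.54 ± 0.24, adjusted p = 0.105). Ifit2, of the same family as Ifit1 and Ifit3, rose by 0.50 ± 0.06 (adjusted p = 0.000214). Ifit1 stood at 5.47 and 5.94 FPKM in AAV-IL-27, against 6.57 and 4.34 FPKM in AAV-ctrl. Its groups overlapped, with the highest and the lowest value both in AAV-ctrl. Like Gbp2, the genes Oas1a, Ifit1 and Ifit3 had expected counts that were not whole numbers, and so did the members Irf1, Irf5 and Irf9. The part of reads shared with related or other genes was not tested.

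**Figure D5:**
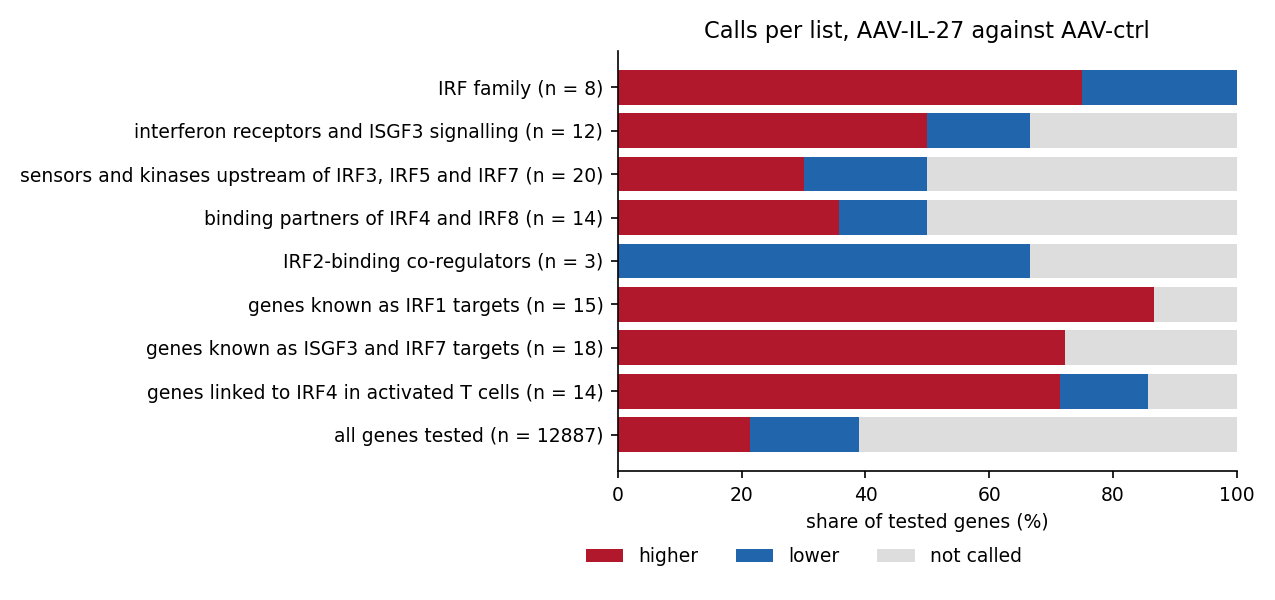
Share in percent of tested genes that were higher (red), lower (blue) or not called (grey) in AAV-IL-27 against AAV-ctrl, for the 8 IRF genes, 7 lists of related genes and all 12887 genes tested. The IRF1 list has 13 of 15 and the ISGF3 and IRF7 list 13 of 18 higher, against 21.3% of all genes. The lists were chosen with earlier results of these data known.

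Of 14 genes linked to IRF4 in activated T cells, 10 rose, 2 fell and 2 did not pass (median 0.69). Over all genes tested, 21.3% were higher and 17.7% lower. Il10, an anti-inflammatory cytokine, stood at 14.9 and 12.6 FPKM in AAV-IL-27, against 0.44 and 0.79 FPKM in AAV-ctrl (4.53 ± 0.23, adjusted p = 1.03e-06). Tbx21, the factor T-bet, stood at 29.5 FPKM in both AAV-IL-27 libraries, against 12.1 and 11.6 FPKM in AAV-ctrl (1.36 ± 0.064, adjusted p = 6.29e-07). Hif1a, a factor of glycolytic metabolism, rose by 0.74 ± 0.052 (adjusted p = 7.3e-06). The 2 that fell were Tcf7, the factor TCF-1 (-0.23 ± 0.054, adjusted p = 0.00894), and Bcl6 (-0.18 ± 0.062, adjusted p = 0.0418), and 1 of the 14 fell without either AAV-IL-27 library and 0 without either AAV-ctrl library. The log2 fold changes of these genes ran from -0.23 to 4.81, and Irf4 itself was at 0.40. The highest, 4.81 ± 0.48, was that of Il21, which was near the floor in AAV-ctrl. Its expected counts were 70.25 and 102.98 in AAV-IL-27, against 1.03 and 5.0 in AAV-ctrl.

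The cells carried the T cell markers at high levels, with Cd3e at 209 and 193 FPKM and Cd8a at 408 and 349 FPKM in AAV-IL-27, against 172 and 175 FPKM and 321 and 335 FPKM in AAV-ctrl. The 13 markers summed to 6119 and 5404 CPM in AAV-IL-27, against 5122 and 5217 CPM in AAV-ctrl, and 8 rose, 1 fell and 4 did not pass. Leaving out AAV-ctrl replicate 1 gave 3 that rose and its replicate 3 gave 4, with 0 lower in both. Markers of other cells also differed between the groups. The 10 neutrophil markers summed to 840 and 1369 CPM in AAV-IL-27, against 22.5 and 14.5 CPM in AAV-ctrl, where Prtn3 was at 0 counts in replicate 3, and 9 of 10 rose, or 2 without either AAV-ctrl library. Of the 8 natural killer cell markers 6 fell, and Gzma and Nkg7, which effector T cells also express, rose. The sum of these 8 was higher in AAV-IL-27, at 709 and 642 CPM, against 471 and 454 CPM in AAV-ctrl. All 10 cell cycle markers rose (median 1.99). The part of these cells in the IRF results was not tested.

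Some members share genomic space with other genes in GENCODE M21, and the sources used here do not say whether strand entered the counting. Bcl2l12 overlaps Irf3 on the opposite strand, with 232 and 281 expected counts in AAV-IL-27, against 310 and 321 in AAV-ctrl (-0.28 ± 0.11, adjusted p = 0.0714). That gene had the same sign of difference as Irf3. Without strand, reads from the stretch the genes share cannot be assigned by position alone, and the length of that stretch was not measured. Expected counts of Irf3 were 1211 and 1279 in AAV-IL-27, against 1463 and 1420 in AAV-ctrl. Those of Irf3 and of Bcl2l12 were whole numbers in every library. A split of reads between these genes was not tested. Tnpo3 overlaps Irf5 and Phrf1 overlaps Irf7, both on the opposite strand. Their log2 fold changes were 0.01 ± 0.065 and -0.14 ± 0.049 (adjusted p = 0.937 and 0.0509). Expected counts of Irf5 were 1302.1 and 1297.02 in AAV-IL-27, against 1596.08 and 1497.94 in AAV-ctrl. Those of Tnpo3 were 1921.9 and 1807.98, against 1776.92 and 1974.06. Unlike those of Irf3 and Bcl2l12, none were whole numbers. A split of reads between Irf5 and Tnpo3 was not tested. Rnf31 overlaps Irf9 on the same strand and was at 0.11 ± 0.054 (adjusted p = 0.147). Irf8 is overlapped by Gm20388 on the same strand, Irf1 by Gm17334 on the opposite strand, and Irf2 by 3 genes on the opposite strand (Gm45479, Gm31172 and Gm45481). Values of these 5 genes were not analysed here. Irf4 has no overlapping gene in this annotation.

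The protein-coding genes whose profile over the 4 libraries lay nearest to each member, by Euclidean distance in centred log2 CPM, were named among 10234 candidates. With 4 libraries such a distance mostly ranks genes by the size of the group difference and the spread within the groups. The nearest genes were Ezh2 and Entpd1 for Irf1, Wrn and Crot for Irf2, Acap1 and Cdk5 for Irf3, Erp44 and Lman1 for Irf4, Ick and Dph6 for Irf5, Ubash3b and Wsb2 for Irf7, Dnase1l3 and Lat for Irf8, and Tspan31 and Nup62 for Irf9. The distances of these genes ran from 0.00403 for Ubash3b to 0.0485 for Lat.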

How the data were processed

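RNA was sequenced from 2 AAV-IL-27 and 2 AAV-ctrl libraries. Per the submitters' processing notes, the build was GRCm38.p6 and the tools were RSEM 1.2.12, Bowtie2 2.2.5, HISAT2 2.0.4 and DESeq2 1.4.5, with no role for each. The authors deposited expected counts per gene, of which 64.9% to 65.1% are whole numbers in each library, and a second set of columns taken as FPKM. Per the file headers that unit is not named, and it was inferred from the values. Columns of group means were not used.

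Expected counts were rounded and filtered with filterByExpr, which left 12887 of 17039 genes, and scaled with TMM factors. The groups were compared with edgeR 4.0.16 (glmQLFit with robust, glmQLFTest) under R 4.3.3. Tests were two-sided, and p-values were adjusted by Benjamini-Hochberg across every tested gene, with 0.05 as the threshold. A standard error (SE) is the log2 fold change over the square root of F. FPKM describe levels only. DESeq2 1.42.0 and limma 3.58.1 served as alternatives. On simulated data of 12887 genes with 2 libraries a group, the fit called 30% of genes changed 1.25-fold, 54% at 1.5-fold and 88% at 2-fold. It also called 14 of 12546 unchanged genes. Far fewer genes were changed in that simulation than were called in the data, so these rates may not hold for the data. Members and lists were chosen with earlier results of these data known. Named genes are the 8 members, from each list the 3 with the smallest p (some are not reported here), the 2 nearest profiles per member and defining markers. Others were named after their values were seen: Tlr3, Tbk1, Spi1, Spib, Psmb9, Ciita, Stat2, Ifngr2, Jak1, Ifit1, Ifit2, Ifit3, Rsad2, Tcf7, Bcl6 and Il21. Nearest profiles were taken among protein-coding genes whose mean log2 CPM reached 2. The chi-square of counts between replicates, divided by its degrees of freedom, was 6.79 (AAV-IL-27 pair) and 2.55 (AAV-ctrl pair), above sampling noise. The labels name no batch. Counts of the lists under each alternative were added after the data were seen.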

Additional observations from a re-analysis of the deposited data

How the results depend on the processing

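Over 16 alternatives no IRF gene changed direction. With factors from the T cell markers, Irf2 (0.115), Irf4 (0.207), Irf7 (0.216) and Irf9 (0.0176) did not pass, 2 IRF genes were higher, and 1328 genes were higher and 3992 lower among all genes, against 2745 and 2278 in the reported fit. Under that scaling the median over all genes was -0.205. New factors shift all genes nearly alike, so the 8 genes could hardly move relative to this median. They moved by at most 0.01, which says nothing on which scaling is right. Upper-quartile factors split the calls into 2362 higher and 2979 lower and library size alone into 2363 and 2975, and Irf9 did not pass under either (0.166 and 0.167). By DESeq2, Irf3 (-0.194), Irf5 (-0.234) and Irf9 (0.218) did not pass, 0 IRF genes were lower and 1212 genes were lower in all. By edgeR those 2 IRF genes had an unadjusted p of 0.00581 and 0.00187. By limma on FPKM, Irf9 did not pass with a pseudocount of 1 (0.167), a pseudocount of 0.1 (0.169) or no filter (0.167). The cause of these differences was not tested.

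Leaving out 1 library at a time gave log2 fold changes of 0.127 to 0.31 for Irf9, -0.233 to -0.158 for Irf3 and -0.277 to -0.193 for Irf5, between 0 and 2 IRF genes lower, 5 or 6 higher, and among all genes 1646 to 2632 higher and 989 to 2254 lower, with the fewest without AAV-ctrl replicate 1. A lone library was then assumed to vary like the other group. Between 1 and 10 of the 10 B cell markers were lower across the settings. The titles give both groups the replicate numbers 1 and 3, but same-numbered libraries did not deviate together (correlation 0.0152). With the replicate block, 6 IRF genes were higher and 2 lower, and 2739 genes were higher and 2232 lower in all.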
